A study of Mus musculus with 2 samples.

Results

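Glutamate receptors and transporters were examined in whole mouse eyeballs from an oxygen-induced retinopathy (OIR) model, as 33 genes of the 47644 in the deposited table. They were chosen by symbol: 24 genes encode receptors and 9 encode transporters of glutamate or related neutral amino acids, and no symbol occurred on more than 1 row. The OIR group was 1 library from C57BL/6 mice that entered a hyperoxia chamber at day 7, stayed there for 5 days, then lived in room air and had their eyes removed at day 17. The control group was 1 library from C57BL/6 eyeballs. Each library was made from 3 µg of total RNA, and the number of animals or eyes behind each, their sex and a separate age for the control are not stated in the labels. In this model high oxygen closes and delays retinal vessels, and the return to room air leaves the vessel-free retina short of oxygen.

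Glutamate is the transmitter of photoreceptors, bipolar cells and ganglion cells. Vesicular transporters load it into synaptic vesicles, ionotropic receptors (AMPA, kainate and NMDA types) open a channel when they bind it, and metabotropic receptors signal through G proteins. At the first synapse of the retina OFF bipolar cells read photoreceptor glutamate through AMPA and kainate receptors and ON bipolar cells through the metabotropic receptor encoded by Grm6. Transporters of the plasma membrane then take glutamate up again, which ends the signal and keeps the amino acid from reaching toxic levels.

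Assigned reads numbered 20378793 in OIR, against 15741235 in control eyes. Levels are given as FPKM, the authors' fragments scaled to transcript length and library size. The ratio given for a gene is its share of all assigned reads in OIR over that in the control, with an exact 95% interval. With 1 library per group there was no replicate check and no test, the intervals allow for counting error only, and animals may differ by more. The genes, and the lists of markers and partners, were chosen with earlier results of these data known. Shares set against those of all genes are therefore descriptions. Gene pairs were chosen after their values were seen, so a pair of a high and a low gene differs by construction. Whole eyes hold more than retina: lens markers took 10.9% of reads in OIR, against 15.2% in control eyes, and corneal epithelium markers took 0.207% in OIR and 0.0671% in the control. Rod markers, in contrast, took 2.99% in OIR and 2.98% in the control. In such bulk samples fewer cells of a type and less RNA per cell cannot be told apart.

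The clearest pattern was that most of the uptake transporters were higher in OIR, while vesicular transporters and receptors were near level as sums. Of the 4 plasma membrane glutamate transporters examined, 3 had ratios between 1.43 and 1.65, and Slc1a6 lay below 1. Together the 4 had 8924 reads in OIR, against 4467 in control eyes, a ratio of 1.54 (1.49 to 1.60). Slc1a3 of the same gene family was not among the genes chosen, so this sum does not cover all uptake. The intervals of the 3 lay above 1, as did those of 36.7% of all genes with an FPKM of 1 in either library. By the difference in level described below, 87.3% of such genes lay below Slc1a1, 89.8% below Slc1a7 and 94.0% below Slc1a2. Vesicular transporters were level or lower, from the abundant Slc17a7 at a ratio of 0.986 down to Slc17a6 at 0.609. As a sum of reads they had a ratio of 0.969 (0.951 to 0.987). Ionotropic receptors as a sum had 0.974 (0.947 to 1.001) and metabotropic receptors 0.964 (0.923 to 1.01). The counting interval held 1 for 14 of the 24 receptor genes. Among the 21 receptors that reached an FPKM of 1 in either library it lay below 1 for 7, or 33.3%, against 14.7% of all genes that did so, and above 1 for 3, or 14.3%, against 36.7%. These counts depend on the scaling: with the authors' scaling factors 12 of the 21 lay below 1 and 2 above, against 25.4% and 23.2% of all genes. They also depend on depth, as the interval of a gene with few reads is wide, and the background was not matched for depth. At this FPKM, 28 of the 30 glutamate genes had at least 100 reads in both libraries, against 11561 of all 15883 genes.

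**Figure D1:**
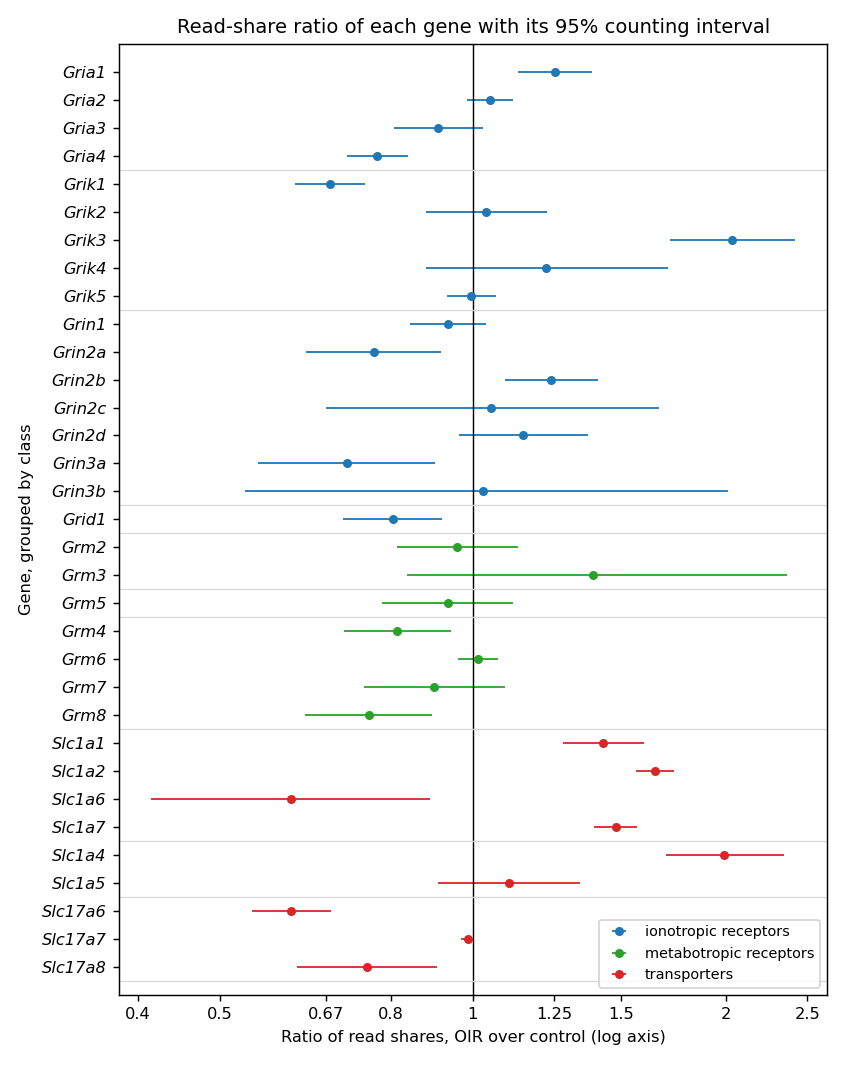
Ratio of read shares, OIR over control, on a log axis, for each of the 33 genes, grouped by class between the grey lines; points are the ratios, bars the exact 95% counting intervals, and colours mark ionotropic receptors, metabotropic receptors and transporters. The points of Slc1a1, Slc1a2, Slc1a7, Slc1a4 and Grik3 lie right of 1 by 1.43-fold or more, and those of Slc17a6, Slc1a6 and Grik1 lie farthest left.

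To set these genes against all others, log2(FPKM + 1) in the control was subtracted from that in OIR; a negative difference means lower in OIR. Genes were kept where 1 or both libraries reached an FPKM of 1, which left 15883 in all and 30 of the 33, without Grin2c, Grin3b and Grm3. The difference was below 0 for 17 of the 30, or 56.7%, against a background of 35.1% of all 15883 genes. The median was -0.036 for the glutamate genes and 0.11 for all genes. A difference of -0.32 or lower, the first of 3 thresholds, was seen in 6 of the 30, against 9.0% of all genes, and one of 0.32 or higher in 5, or 16.7%, against 24.3%. Among genes with at least 100 reads in both libraries the same counts were 5 lower and 5 higher of 28, against 7.46% and 18.7% of 11561 genes. At 1.5-fold on the same scale the counts were 1 lower and 3 higher, against 2.58% and 9.11% of all genes. Among the genes with at least 100 reads those 3, Slc1a2, Slc1a4 and Grik3, made up 10.7% of 28, against 5.1% of 11561. None of the 30 reached 2-fold in either direction on this scale, which 0.718% of all genes did downward and 3.07% upward. The added 1 shrinks the differences of low genes: as a ratio of read shares Grik3 stood at 2.03 and Slc1a6 at 0.609.

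The levels of the genes spanned several orders. Slc17a7 headed the list with 413 FPKM in OIR, against 419 in control eyes, and Grin2c closed it with 0.524 in OIR and 0.499 in the control. Behind Slc17a7 came Slc1a2, Slc1a7, Grik5 and Grm6, all between 44.2 and 134 FPKM in both libraries. Reads per gene ran down to 18, for Grin3b in the control. An FPKM depends on the length it is divided by, and the length implied by count and FPKM equalled the gene length in the authors' deposited table for only 5 of the 33 genes. For Slc1a2 the implied length was 1720 bases and the deposited length 11595. On the deposited length it would stand at 19.8 on the same scale in OIR and 12.05 in the control, and would rank 7th in the control rather than 2nd. Ratios between the libraries do not depend on this length.

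**Figure D2:**
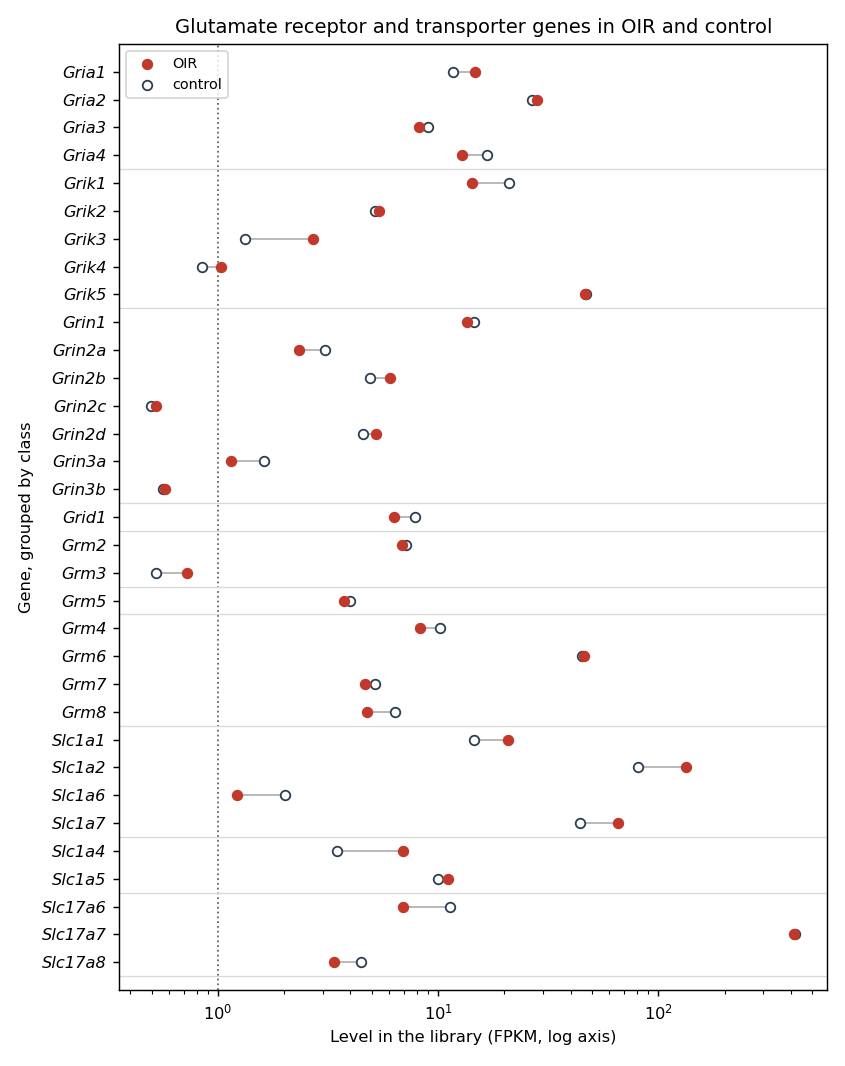
Level of each gene in FPKM on a log axis, with filled points for OIR and open points for the control, joined by a line; the dotted line marks the filter of 1 FPKM. Slc17a7 lies apart on the right at 413 FPKM in OIR, against 419 in control eyes, and Grin2c, Grin3b and Grm3 lie left of the filter in both libraries.

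Uptake transporters of the plasma membrane were described first. Slc1a2, which encodes GLT-1, the main glutamate transporter of brain astrocytes that in the retina is found in bipolar cells and cones (ENSMUSG00000005089, mm10 chromosome 2, 102658659 to 102790784), had 133.7 FPKM in OIR, against 81.2 in control eyes. Its reads numbered 4688 in OIR, against 2199 in control eyes, a ratio of 1.65 (1.57 to 1.73). In the authors' deposited table its log2 fold change was 0.58 with an adjusted p of 0.000289, the lowest of the 33 genes. That p compares 1 library with 1 library, and the authors did not mark the gene as up. Slc1a7, which encodes the EAAT5 transporter of photoreceptor and bipolar terminals, a carrier with a large glutamate-gated chloride current (ENSMUSG00000008932, chromosome 4, 107968332 to 108013532), had 65.3 FPKM in OIR, against 44.2 in control eyes. Its ratio was 1.48 (1.39 to 1.57). Slc1a1, which encodes the neuronal transporter EAAC1 (ENSMUSG00000024935, chromosome 19, 28835049 to 28913960), had 20.8 FPKM in OIR, against 14.5 in control eyes, with a ratio of 1.43 (1.28 to 1.60). All 3 genes were thus higher in OIR, and Slc1a2 slightly more so than Slc1a7: the ratio between them was 1.11 times as high in OIR (1.03 to 1.20).

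Exons of the antisense gene 4430402I18Rik cover 31.9% of the exonic bases of Slc1a1, and that gene had 18 reads in OIR, against 15 in control eyes, beside those of Slc1a1, which numbered 927 in OIR, against 501 in control eyes. How reads on the shared bases were assigned is not stated, and their part in the result was not tested. The fourth of the uptake genes examined, Slc1a6, encodes EAAT4 of cerebellar Purkinje cells and was scarce in the eye. It had 52 reads in OIR, against 66 in control eyes, or 1.22 FPKM in OIR and 2.01 FPKM in control eyes, and a ratio of 0.609 (0.415 to 0.889). It was the only member of the class below 1.

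The neutral amino acid exchangers of the same gene family differed from each other. Slc1a4 encodes ASCT1, which exchanges serine, alanine and cysteine (ENSMUSG00000020142, chromosome 11, 20302180 to 20332713). It had 6.91 FPKM in OIR, against 3.47 in control eyes, from 549 reads in OIR and 213 in control eyes, and its ratio of 1.99 (1.70 to 2.34) was the highest among the transporters. Slc1a5 encodes the glutamine exchanger ASCT2 and had 11.1 FPKM in OIR, against 10.04 in control eyes, a ratio of 1.10 (0.910 to 1.34). The ratio of Slc1a4 to Slc1a5 was thus 1.80 times as high in OIR as in the control (1.40 to 2.33). Corneal epithelium markers moved in the same direction as Slc1a4, with a median difference of 1.22 and all 10 genes above 0, and their part in the result was not tested.

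The start regions of the 4 transporter genes that were clearly higher in OIR are shown because these genes differed in the same direction. Each runs from 250 bases before to 50 after a transcript start, 5′ to 3′ on the strand of the gene, from RefSeq on GRCm38.p6 (mm10). Capitals mark the core ACGTG or GCGTG of hypoxia-response elements and the element TGATGNAA that binds ATF4 with C/EBP partners, searched on both strands. The regions are chr2:102706188-102706487 (plus strand) for Slc1a2, chr4:107968156-107968455 (plus) for Slc1a7, chr19:28834885-28835184 (plus) for Slc1a1 and chr11:20332664-20332963 (minus) for Slc1a4. That of Slc1a2 lies inside the gene span given above, at an internal start.
Slc1a2: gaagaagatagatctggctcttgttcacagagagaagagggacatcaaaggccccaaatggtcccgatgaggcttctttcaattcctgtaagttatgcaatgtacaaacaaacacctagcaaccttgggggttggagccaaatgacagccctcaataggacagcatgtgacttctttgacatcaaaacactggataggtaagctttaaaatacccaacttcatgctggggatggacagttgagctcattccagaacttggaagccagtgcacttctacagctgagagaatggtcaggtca
Slc1a7: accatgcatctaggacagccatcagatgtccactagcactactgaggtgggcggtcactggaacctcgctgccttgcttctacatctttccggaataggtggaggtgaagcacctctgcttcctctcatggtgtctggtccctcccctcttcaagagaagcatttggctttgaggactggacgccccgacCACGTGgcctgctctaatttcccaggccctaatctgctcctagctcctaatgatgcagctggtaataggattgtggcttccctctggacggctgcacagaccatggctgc
Slc1a1: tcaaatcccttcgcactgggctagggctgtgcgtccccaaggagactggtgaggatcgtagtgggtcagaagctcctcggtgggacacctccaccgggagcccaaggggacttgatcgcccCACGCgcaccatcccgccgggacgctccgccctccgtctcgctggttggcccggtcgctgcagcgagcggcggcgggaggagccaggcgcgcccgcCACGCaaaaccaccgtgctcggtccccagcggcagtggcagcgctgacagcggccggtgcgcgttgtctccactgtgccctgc
Slc1a4: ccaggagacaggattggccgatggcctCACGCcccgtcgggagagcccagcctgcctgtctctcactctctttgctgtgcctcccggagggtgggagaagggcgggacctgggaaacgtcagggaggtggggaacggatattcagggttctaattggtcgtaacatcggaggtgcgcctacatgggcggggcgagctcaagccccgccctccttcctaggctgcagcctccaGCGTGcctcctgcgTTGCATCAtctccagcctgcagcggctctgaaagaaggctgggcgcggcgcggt
No capital stands in the Slc1a2 window. The Slc1a7 window holds 1 palindromic run, which reads ACGTG on both strands, the Slc1a1 window holds GCGTG on the strand opposite to the one printed at positions 122 and 218, counted from its 5′ end, and the Slc1a4 window holds GCGTG on the printed strand at position 233 and on the opposite strand at position 28, and TGATGNAA on the opposite strand at position 247. Among all 32851 start regions, 19.6% held ACGTG, 32.4% GCGTG and 3.97% TGATGNAA. For 23 of the 33 genes 28 such regions were listed, of which 6 held ACGTG, 13 GCGTG and 3 TGATGNAA. Counted by gene, a unit unlike that of the shares above, these were 6, 12 and 2 of the 23. A match of letters is a description and not evidence of binding.

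Vesicular transporters load glutamate into synaptic vesicles. Slc17a7, the form of photoreceptors and bipolar cells (ENSMUSG00000070570, chromosome 7, 45163921 to 45176138), had 24741 reads in OIR, against 19380 in control eyes, with a ratio of 0.986 (0.968 to 1.00). It made up 97.6% of the summed FPKM of the class in OIR and 96.4% in the control. Slc17a6, the form of ganglion cells (ENSMUSG00000030500, chromosome 7, 51621830 to 51671125), had 6.92 FPKM in OIR, against 11.4 in control eyes, and was the lowest of the 33 genes in its difference, at -0.64. Only 2.07% of all genes at or above the filter had a lower one. Slc17a8, the form of a small set of amacrine cells that release glutamate beside another transmitter, had 3.35 FPKM in OIR, against 4.48 in control eyes, a ratio of 0.748 (0.618 to 0.906). Relative to Slc17a7, the level of Slc17a6 in OIR was 0.617 times that in the control (0.553 to 0.688) and that of Slc17a8 0.759 times (0.626 to 0.920).

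Markers of ganglion cells were lower beside Slc17a6: 10 of 11 lay below 0, against 35.1% of all genes, with a median difference of -0.50. The list summed to 293 FPKM in OIR, against 427 in control eyes. Against Thy1, a surface protein of ganglion cells, Slc17a6 was close to level, with a ratio of ratios of 0.980 (0.868 to 1.11). Thy1, itself at 0.621 (0.588 to 0.656), was picked from the 11 markers after the values were seen, and it does not stand for the list. The markers differed among themselves: Pou4f3 had a ratio of 0.544 (0.387 to 0.762) and Pou4f1 one of 0.975 (0.857 to 1.11). The single marker above 0 was Rbpms, at 1.03 (0.901 to 1.18). The part of ganglion cell number in the result was not tested. Set against vesicular loading, the ratio of Slc1a2 to Slc17a7 was 0.324 in OIR and 0.194 in the control on the FPKM scale, 1.67 times as high in OIR (1.58 to 1.76). This pair, with the highest of the uptake genes, was also chosen after the values were seen. With the deposited lengths the ratio was 0.0480 in OIR and 0.0288 in the control, so its level depends on the length used, while its change between the libraries depends neither on length nor on library size.

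AMPA receptors carry fast excitation. Their summed level was 63.8 FPKM in OIR, against 64.1 in control eyes, yet the subunits diverged. Gria1 (ENSMUSG00000020524, chromosome 11, 57011387 to 57330244) had 14.7 FPKM in OIR, against 11.7 in control eyes, a ratio of 1.252 (1.13 to 1.38). Gria4 (ENSMUSG00000025892, chromosome 9, 4417899 to 4796234) went the other way, with 12.8 FPKM in OIR, against 16.6 in control eyes, a ratio of 0.770 (0.709 to 0.837). Gria2, the subunit whose edited form keeps the channel from passing calcium, had 28.1 FPKM in OIR, against 26.8 in control eyes, and Gria3 had 8.22 FPKM in OIR, against 9.03 in control eyes. The intervals of Gria2 (0.986 to 1.12) and Gria3 (0.805 to 1.03) held 1. As a share of the summed AMPA level, Gria1 made up 23.1% in OIR and 18.3% in the control, and Gria4 made up 20.05% in OIR and 25.9% in the control. The ratio of Gria1 to Gria4 was 1.15 in OIR and 0.708 in the control on the FPKM scale, 1.62 times as high in OIR (1.43 to 1.85). As these 2 had the highest and lowest ratios of the class and were paired after the values were seen, a value above 1 was built in. Which of the pair stood higher in OIR depends on the length used: with the deposited lengths the ratio was 0.877 in OIR and 0.540 in the control, and Gria4 was the higher in both. The shares of a family depend on these lengths in the same way.

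Kainate receptors showed the widest spread of any receptor class. Grik1, the subunit of kainate receptors on OFF cone bipolar cells (ENSMUSG00000022935, chromosome 16, 87896196 to 88056176), had 793 reads in OIR, against 905 in control eyes, or 14.3 FPKM in OIR and 21.1 FPKM in control eyes, a ratio of 0.677 (0.615 to 0.745). Grik3 (ENSMUSG00000001985, chromosome 4, 125490700 to 125714173) had 495 reads in OIR, against 188 in control eyes, or 2.71 FPKM in OIR and 1.33 FPKM in control eyes, a ratio of 2.03 (1.72 to 2.42), the highest of all 33 genes. The ratio of Grik3 to Grik1 was 3.00 times as high in OIR (2.47 to 3.67). As these 2 had the highest and lowest ratios of the class and were paired after the values were seen, a value far above 1 was built in. Grik3 remained the scarcer: Grik1 made up 20.4% of the summed kainate level in OIR and 28.01% in the control, and Grik3 made up 3.86% in OIR and 1.77% in the control. Grik5, a subunit that needs a partner such as the product of Grik1 to form channels, was the most abundant and stood at 46.6 FPKM in OIR, against 46.8 in control eyes. Grik2 and Grik4 had ratios of 1.04 (0.8796 to 1.23) and 1.22 (0.879 to 1.71). Markers of OFF bipolar cells lay lower beside Grik1, with a median of -0.24 and 5 of 7 below 0, against 35.1% of all genes. Of the 5, the intervals of Bhlhe22 (0.840 to 1.04) and Fezf2 (0.663 to 1.0002) held 1. The part of these markers in the result was not tested. Among the 7, Tacr3, a tachykinin receptor of some OFF cone bipolar cells, had the lowest ratio, 0.529 (0.445 to 0.627), and Syt2 had 1.02 (0.882 to 1.18).

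NMDA receptors need glycine or D-serine beside glutamate, and every receptor holds the subunit encoded by Grin1. Grin1 had 13.6 FPKM in OIR, against 14.5 in control eyes, a ratio of 0.934 (0.842 to 1.04). The subunits that go with it differed from each other. Grin2b, the form that prevails early in the development of the forebrain (ENSMUSG00000030209, chromosome 6, 135713233 to 136173511), had 6.08 FPKM in OIR, against 4.90 in control eyes, a ratio of 1.24 (1.09 to 1.41). Grin2a, the form that becomes common there later (ENSMUSG00000059003, chromosome 16, 9567898 to 9995560), had 2.33 FPKM in OIR, against 3.06 in control eyes, a ratio of 0.763 (0.634 to 0.917). The FPKM ratio of Grin2b to Grin2a was 2.61 in OIR and 1.60 in the control, 1.62 times as high in OIR (1.30 to 2.04). A higher and a lower gene were paired here after the values were seen, so a value above 1 was built in. Grin3a, which encodes a glycine-binding subunit, had 1.15 FPKM in OIR, against 1.63 in control eyes, and its ratio was 0.709 (0.556 to 0.903). Grin2d stood at 5.23 FPKM in OIR, against 4.56 in control eyes, and its interval held 1 (0.964 to 1.37). The low Grin2c and Grin3b had 49 and 24 reads in OIR, against 36 and 18 in control eyes, and a difference was not detectable at this depth. Exons of Tmem259 on the other strand cover 32.1% of the exonic bases of Grin3b, and the 61.7 FPKM of Tmem259 in OIR and its 59.6 FPKM in control eyes are far above those of Grin3b, so the few reads of Grin3b are uncertain. Grid1, which encodes a delta receptor that organises synapses and is not opened by glutamate, had 6.31 FPKM in OIR, against 7.85 in control eyes, a ratio of 0.804 (0.701 to 0.921).

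**Figure D3:**
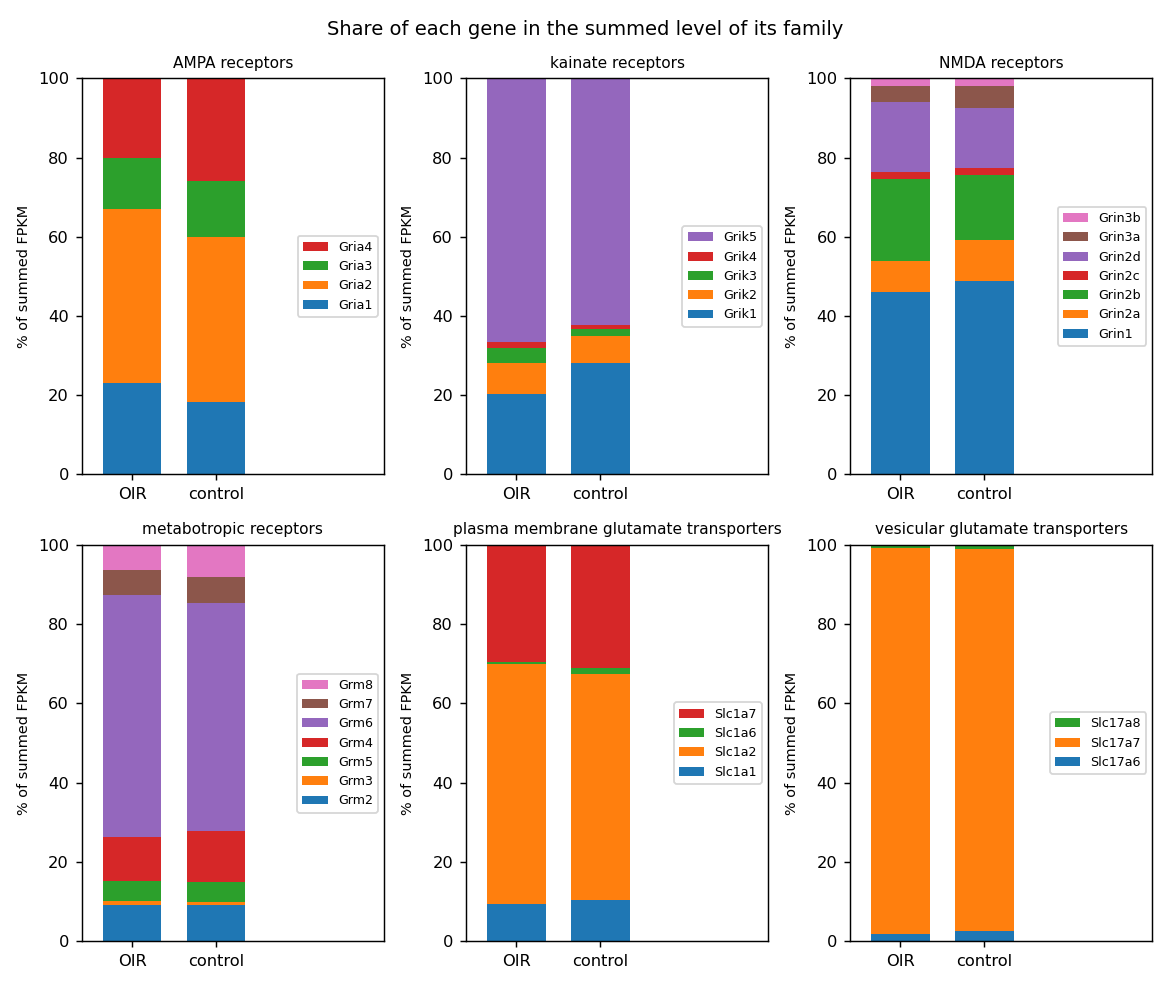
Share of each gene in the summed FPKM of its family, in percent, as stacked bars with OIR left and control right, for AMPA, kainate, NMDA and metabotropic receptors and for plasma membrane and vesicular transporters. Gria1 made up 23.1% in OIR and 18.3% in the control, Grin2b 20.6% in OIR and 16.5% in the control, Grik1 made up 20.4% in OIR and 28.01% in the control, and Slc17a7 and Grm6 made up most of their families in both libraries.

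Of the 6 metabotropic receptors at or above the filter, 5 had a difference below 0, against 35.1% of all genes. The counting interval lay below 1 for only 2 of the 6, Grm8 and Grm4, and held 1 for the others. Grm6, the receptor of ON bipolar cells (ENSMUSG00000000617, chromosome 11, 50850685 to 50866208), had 45.8 FPKM in OIR, against 45.2 in control eyes, a ratio of 1.01 (0.962 to 1.07). It held 61.3% of the summed metabotropic level in OIR and 57.5% in the control. Trpm1, the channel that the Grm6 cascade controls, was lower at 0.837 (0.811 to 0.865), so the ratio of Grm6 to Trpm1 was 1.21 times as high in OIR (1.14 to 1.29). The ON bipolar markers as a list, Trpm1 among them, had a median difference of -0.06, with 5 of 8 below 0, against 35.1% of all genes. Their ratios ran from 0.681 (0.619 to 0.749) for Pcp2 to 1.49 (1.35 to 1.65) for Lrit3. Rgs11, at 1.28 (1.17 to 1.40), and Gpr179, at 1.12 (1.05 to 1.18), were also higher in OIR, so Trpm1 does not stand for the list. The other group III receptors, which act as brakes on release at presynaptic terminals, were lower or uncertain. Grm8 (ENSMUSG00000024211, chromosome 6, 27275119 to 28135178) had 4.78 FPKM in OIR, against 6.35 in control eyes, and relative to Grm6 it was 0.742 times as high in OIR (0.618 to 0.890). Grm4 had 8.27 FPKM in OIR, against 10.2 in control eyes, a ratio of 0.813 (0.702 to 0.942), and the interval of Grm7 held 1 (0.742 to 1.09). Of group II, Grm2, which marks starburst amacrine cells in the mouse retina, had 6.83 FPKM in OIR, against 7.12 in control eyes, and Grm3 had 45 reads in OIR, against 25 in control eyes, a ratio of 1.39 (0.835 to 2.37). Grm5, of group I, which couples to calcium release, had 3.72 FPKM in OIR, against 3.98 in control eyes. The intervals of these 3 genes also held 1. Exons of other genes cover more than 5% of the exonic bases of Grm6 (11.0%), Grm2 (9.60%), Grin1 (13.5%) and Grin2d (9.66%), and whether counting used strand is not stated.

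Differences depended on transcript length across the whole table: the median was -0.09 in the second-shortest of 20 length bins and 0.23 in the longest, although it was 0.15 in the shortest. Transcripts of the 33 glutamate genes, receptors and transporters together, were mostly long. The median length behind the FPKM values was 3094 bases for the 33 genes and 1809 for all genes at or above the filter. Centring each gene on the median of its length bin gave the receptors a median difference of -0.25, with 17 of 21 below 0. Most of that shift came without length: centring on the median of all genes alone gave -0.19, with 16 of 21 below 0, against -0.08 and 13 of 21 with no centring. Plasma membrane transporters had a median of 0.37 with length bins, 0.41 with centring on all genes and 0.52 with no centring. In length bins Grik3 had a difference of 0.44, Gria1 of 0.15 and Grin2b of 0.03.

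**Figure D4:**
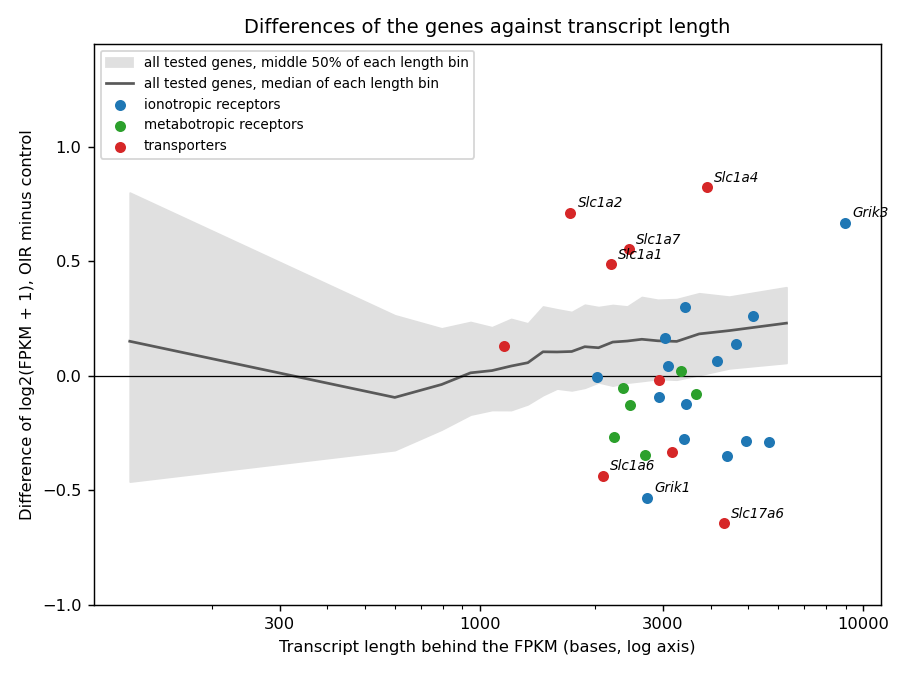
log2(FPKM + 1), as OIR minus control, against the transcript length behind the FPKM on a log axis, for the 30 genes at or above the filter; the line is the median of all 15883 such genes in 20 length bins and the band their middle 50%. Slc1a2, Slc1a7, Slc1a1, Slc1a4 and Grik3 lie above the band, and most receptors lie below the line.

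Partner genes were taken as 4 lists. Of all genes at or above the filter, 35.1% lay below 0, 9.0% had a difference of -0.32 or lower and 24.3% one of 0.32 or higher. Auxiliary subunits of AMPA and kainate receptors, which set trafficking and gating, were mostly lower: 13 of 15 lay below 0, with a median of -0.12, and 5 had a difference of -0.32 or lower and none one of 0.32 or higher. Of the 13, the intervals of Cacng2, Cacng3, Cacng7, Cacng8, Shisa6 and Neto2 held 1. Cnih3, a partner of AMPA receptors, had a ratio of 0.683 (0.476 to 0.978) from only 61 reads in OIR and 69 in control eyes. Neto1, a partner of kainate and NMDA receptors, had 0.6997 (0.559 to 0.875). Postsynaptic scaffolds were spread around 0, with 8 of 19 below it and a median of 0.04. Their highest member, Dlg4, a scaffold that in the retina is abundant in photoreceptor terminals, had 622 FPKM in OIR, against 415 in control eyes, a ratio of 1.5005 (1.46 to 1.54). Homer1, which ties group I metabotropic receptors to calcium stores, had 1.32 (1.13 to 1.54). Dlgap3 and Grip2 had the lowest ratios, at 0.809 (0.734 to 0.891) and 0.814 (0.675 to 0.983).

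Genes of glutamate synthesis and recycling had 7 of 14 below 0, against 35.1% of all genes. Glul, the glutamine synthetase of Müller glia that disposes of glutamate taken up, was the lowest at 0.580 (0.569 to 0.591). The ratio of Slc1a2 to Glul was 0.132 in OIR and 0.0463 in the control on the FPKM scale, 2.84 times as high in OIR (2.69 to 3.00). This pair sets the highest of the uptake genes against the lowest gene of this list and was chosen after the values were seen. A value far above 1 was thus built in. The 2 genes mark different cells, as described above, so the ratio is not a balance within 1 cell type. Müller glia markers as a list lay low, with 8 of 9 below 0 and a median of -0.43, Glul among them in both lists, and their part in this was not tested. Psat1, of serine synthesis, had a ratio of 0.766 (0.697 to 0.843). Gls2, a glutaminase that makes glutamate from glutamine, and Slc38a5, a glutamine transporter, were the highest at 1.72 (1.23 to 2.43) and 1.72 (1.14 to 2.62), both at low levels. Among the 8 genes that supply glycine and D-serine, Slc7a10, an exchanger of both, had 7.24 FPKM in OIR, against 4.14 in control eyes, a ratio of 1.75 (1.31 to 2.36). Shmt2, which makes glycine from serine in mitochondria, had 1.51 (1.36 to 1.67). Slc6a9, the glycine transporter of amacrine cells, had 0.741 (0.687 to 0.798), and Srr, which makes D-serine, 0.844 (0.732 to 0.974).

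**Figure D5:**
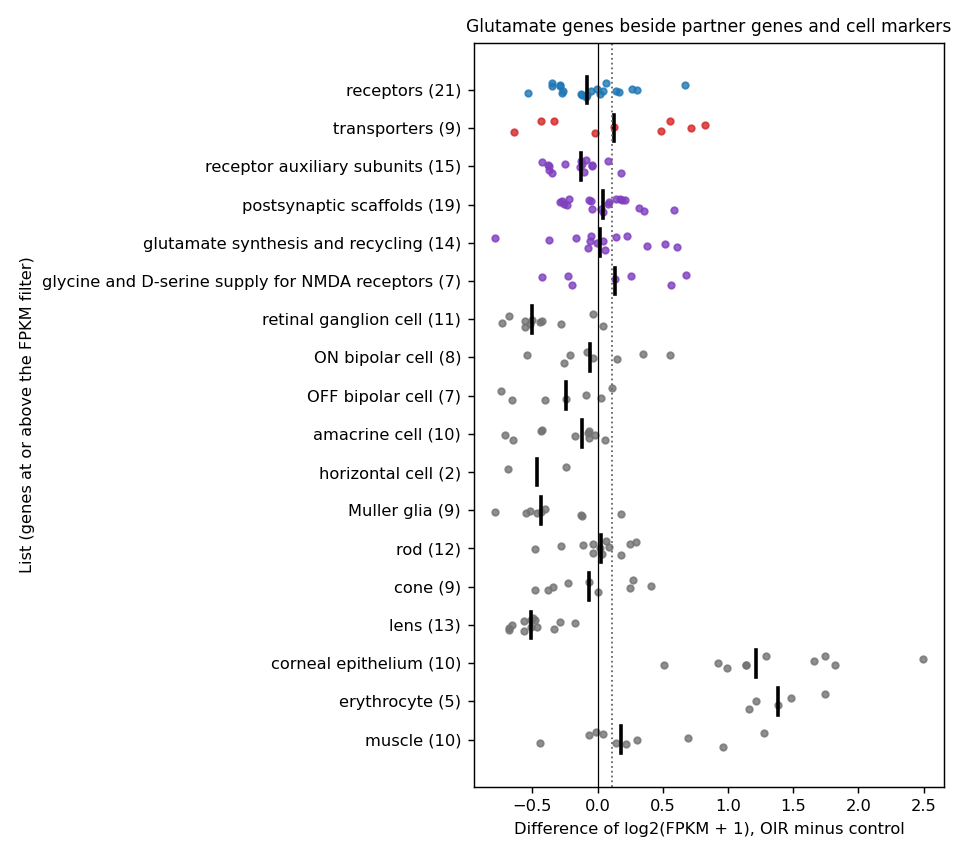
log2(FPKM + 1), as OIR minus control, for glutamate receptor and transporter genes, partner lists and cell markers; each point is a gene at or above the filter, black bars are list medians, numbers in brackets count the genes, and the dotted line is the median of all such genes, 0.11. Receptors and auxiliary subunits centre just below 0, transporters spread widely, ganglion cell, Müller glia and lens markers lie lower, and corneal epithelium and erythrocyte markers lie higher.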

How the data were processed

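The submitters' processing notes list HTSeq 0.6.1, TopHat2 2.0.12, Bowtie2 2.2.3 and the build mm10; settings, annotation release and use of strand: not given in the sources used here. Per the file headers, the authors deposited 1 table with a read count and an FPKM value per gene and library. Per the file headers it also holds scaled counts, a signal used here only to read off the authors' factors, and a log2 fold change with p-values. Per the labels' protocols, libraries were made with the NEBNext Ultra RNA kit. From the table, 5 lines of broken annotation were dropped. Ratios of read shares, exact conditional (Clopper-Pearson) 95% intervals and differences of log2(FPKM + 1) were computed with Python 3.11.15 and scipy 1.17.1, and the interval was tested on simulated counts. Without molecular identifiers, PCR copies count as reads. The intervals treat each read as independent, so they may be too narrow even for counting error. Exon overlaps came from GENCODE M21 on the same build. All 33 genes are named, and in each partner list up to 2 genes at either end whose interval excludes 1. Other genes named, and the gene pairs, were chosen after their values were seen, so a pair of a high and a low gene differs by construction. The members and lists were chosen with earlier results of these data known. Alternatives were other pseudocounts, filters, centrings and scalings.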

Additional observations from a re-analysis of the deposited data

How the results depend on the processing

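Each group is 1 library, so depth limits single genes and no alternative tests the spread between animals. No paired analysis was possible because each group holds 1 sample and the values come from no test. The median difference of the 30 glutamate genes, -0.036, lies so close to 0 that it turned to 0.055 on the TPM scale, where the median of all genes was 0.20, against 0.11 on the FPKM scale, and the mean over the same genes was 0.0039. Under the other 11 alternatives it stayed below 0, between -0.0048 and -0.19. The count of genes below 0 was 17 of 30; it was 14 of 30 on the TPM scale, which left fewer below 0 than above, 12 of 23 with an FPKM filter of 5, and 21 of 30 with centring in length bins. The authors' scaling factors lower every log2 ratio by 0.14; under them the median of all genes was -0.010, that of the receptors -0.19 and that of the plasma membrane transporters 0.39. Under 12 alternative scales, filters, centrings and pseudocounts the plasma membrane transporters kept a median between 0.37 and 0.62, and the vesicular transporters one between -0.48 and -0.27, although on the TPM scale only 2 of those 3 lay below 0; receptors below 0 numbered 11 of 21 there. No single-gene ratio whose interval excluded 1 changed side under the authors' factors, a total over rod markers or a total without lens, muscle, erythrocyte and mitochondrial genes. Under the authors' factors the intervals of Gria3, Grik5, Grin1, Grm6, Grm7 and Slc17a7 came to lie below 1, that of Grin2b came to hold 1, and 8 of the 33 ratios left their counting interval, and under the last total 3.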
